A study of Homo sapiens with 34 samples.

Results

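The intronic deletion of DDX17 was set directly against the knockout of the same gene in human hTERT RPE-1 cells, an immortalised retinal pigment epithelial line. The 6 libraries were chosen by their labels and belong to a series of 34 RNA-seq libraries in 17 hybrid guide RNA (hgRNA) groups. An hgRNA carries 1 Cas9 guide and 1 Cas12a guide in a single transcript, so that a cell receives a pair of cuts. DDX17 deletion cells carried hgRNA 1 (2 libraries) or hgRNA 2 (2 libraries), each of which the labels describe as removing intronic sequence around an exon with a premature stop codon. DDX17 knockout cells (2 libraries) carried 1 hgRNA with an exonic Cas9 guide and an intergenic Cas12a guide. Control cells carried 1 of 2 hgRNAs that delete intergenic sequence (2 libraries each). Cells of all 3 groups, controls included, received their hgRNA by lentivirus, passed through 72 h of puromycin (20 µg/ml) and were collected 4 days later. They were harvested as unsorted populations and not as clones, and the share of edited alleles is not given in the sources used here. The labels call the 2 libraries of an hgRNA biological duplicates without saying which steps were repeated. P-values therefore measure only the spread between such duplicates. Unless stated, that spread was pooled over all 17 hgRNA groups, other edited genes included, and not taken from the 6 libraries alone.

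DDX17 and its paralogue DDX5 are DEAD-box RNA helicases, enzymes that remodel RNA and RNA-protein complexes. They act in alternative splicing, in microRNA processing with the Drosha complex and as co-regulators of transcription factors such as p53 and MyoD. A poison exon places a stop codon ahead of the last exon junction, and transcripts that include it are usually targets of nonsense-mediated decay. Many genes for RNA-binding proteins use such exons to limit their own expression.

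The guides and the targeted pieces of DDX17 are printed because the comparison is between what these 2 edits removed. DDX17 lies on the minus strand of chromosome 22 at chr22:38483440-38507660 (GRCh38, as all coordinates here), and its poison exon lies in intron 11, at chr22:38488116-38492055. In transcript DDX17-207 of GENCODE v29 the exon is 231 bases long, at chr22:38489228-38489458, and its stop codon starts at exon base 45. The coding part of the exon, with the stop in capitals, and the start of the last exon, with the 17 bases shared with the knockout guide in capitals, read 5′ to 3′ as follows.
DDX17 poison exon, chr22:38489412-38489458, minus strand: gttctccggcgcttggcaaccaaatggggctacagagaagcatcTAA
DDX17 last exon, chr22:38486411-38486440, minus strand: GTGGTCGTTCTCGTTACcggaccacttctt
knockout Cas9 guide: tagGTGGTCGTTCTCGTTAC
deletion hgRNA 2 Cas9 guide: ttaggggtcagtaaagaccg
deletion hgRNA 2 Cas12a guide: agtaggtaaaaatatacattcag
deletion hgRNA 1 Cas9 guide: ctttcccggaaagcccccag
deletion hgRNA 1 Cas12a guide: ctggggattgggattgagagggg
The knockout guide covers the acceptor splice site of the last exon, with 17 of its 20 bases in the exon and a CGG motif next to it. Both guides of hgRNA 2 match intron 11, at chr22:38489703-38489722 for Cas9 and chr22:38489053-38489075 for Cas12a, and the 670 bases from guide to guide hold the whole poison exon. Neither guide listed for hgRNA 1 matches a GENCODE v29 transcript of DDX17, including DDX17-201, which retains intron 11. The Cas9 guide listed for hgRNA 1 matches an exon of PFN1 (profilin 1, an actin-binding protein) exactly, at chr17:4947345-4947364, with a GGG motif. Whether hgRNA 1 removed the poison exon could therefore not be read from its listed guides. Deletion values are listed as hgRNA 1 replicates 1 and 2, then hgRNA 2 replicates 1 and 2, and control values likewise. Estimates for the deletion are means over both hgRNAs unless an hgRNA is named.

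The level of a gene was taken as its reads across spliced exon-exon junctions, in counts-per-million units after scaling (CPM), and genes without introns were not measured. The 10 deletion, knockout and control libraries held 12353936 to 19224035 such reads. Knockout replicate 1 stood apart. Over 57659 introns, exon-intron reads made up 1.84, 2.70, 1.94 and 1.85% of exon-intron and spliced reads in deletion libraries, 1.09 and 2.00% in knockout libraries and 1.88, 2.28, 2.05 and 1.87% in control libraries. The replicate 1 libraries of all 4 knockouts in the series lay at 0.88 to 1.09%, below every one of the 26 deletion and control libraries (1.64 to 2.70%). Deletion hgRNA 1 replicate 2, the shallowest of the 34 libraries, had the highest share. The main results of deletion against knockout are therefore given with and without knockout replicate 1, and the part of this share in them was not tested. Where a gene has a single estimate, it uses both knockout libraries. Values of the knockout against controls also use both, and how their count depends on replicate 1 is given in the last section. The bulk RNA of a mixed population does not tell less RNA per cell from fewer cells of a type.

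DDX17 RNA was higher after the intronic deletion than after the knockout and lay near the control level in the deletion. DDX17 had 448, 427, 422 and 406 CPM in deletion libraries, 285 and 330.3 CPM in knockout libraries and 433, 420.0, 396 and 412 CPM in control libraries. The 4 deletion libraries all lay above both knockout libraries, and they overlapped the controls. The log2 difference between deletion and knockout was 0.47 (SE 0.09, adjusted p = 0.0024, limma over 12081 genes). Without knockout replicate 1 the log2 difference was 0.37 and no longer passed the threshold of 0.05 (adjusted p = 0.11). Against controls, DDX17 differed by 0.04 log2 in the deletion (adjusted p = 0.87) and by -0.44 in the knockout (adjusted p = 0.013). In the authors' deposited table, DDX17 had 170.29 RPKM in hgRNA 1 and 137.3 RPKM in hgRNA 2, against 101.57 RPKM in the knockout and 137.36 RPKM in controls. The log2 fold changes against controls in the authors' deposited table were -0.1475, -0.106 and -0.5581 for hgRNA 1, hgRNA 2 and the knockout, of which the last had a false discovery rate of 0.0006812. For hgRNA 1 the RPKM and the log2 fold change of the authors' deposited table point in opposite directions. The paralogue DDX5 had 547, 459, 574 and 564 CPM in deletion libraries, 512 and 679 CPM in knockout libraries and 573, 521, 527 and 586 CPM in control libraries, and the groups overlapped (log2 difference -0.14, adjusted p = 0.68). PFN1, the gene that the listed hgRNA 1 guide matches, had 1251, 2028, 1304 and 1339 CPM in deletion libraries and 1920.5 and 1518 CPM in knockout libraries (adjusted p = 0.44). In control libraries PFN1 had 1510, 1992, 1727 and 1517 CPM. The hgRNA 1 libraries were the lowest and the highest of the deletion libraries.

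**Figure D1:**
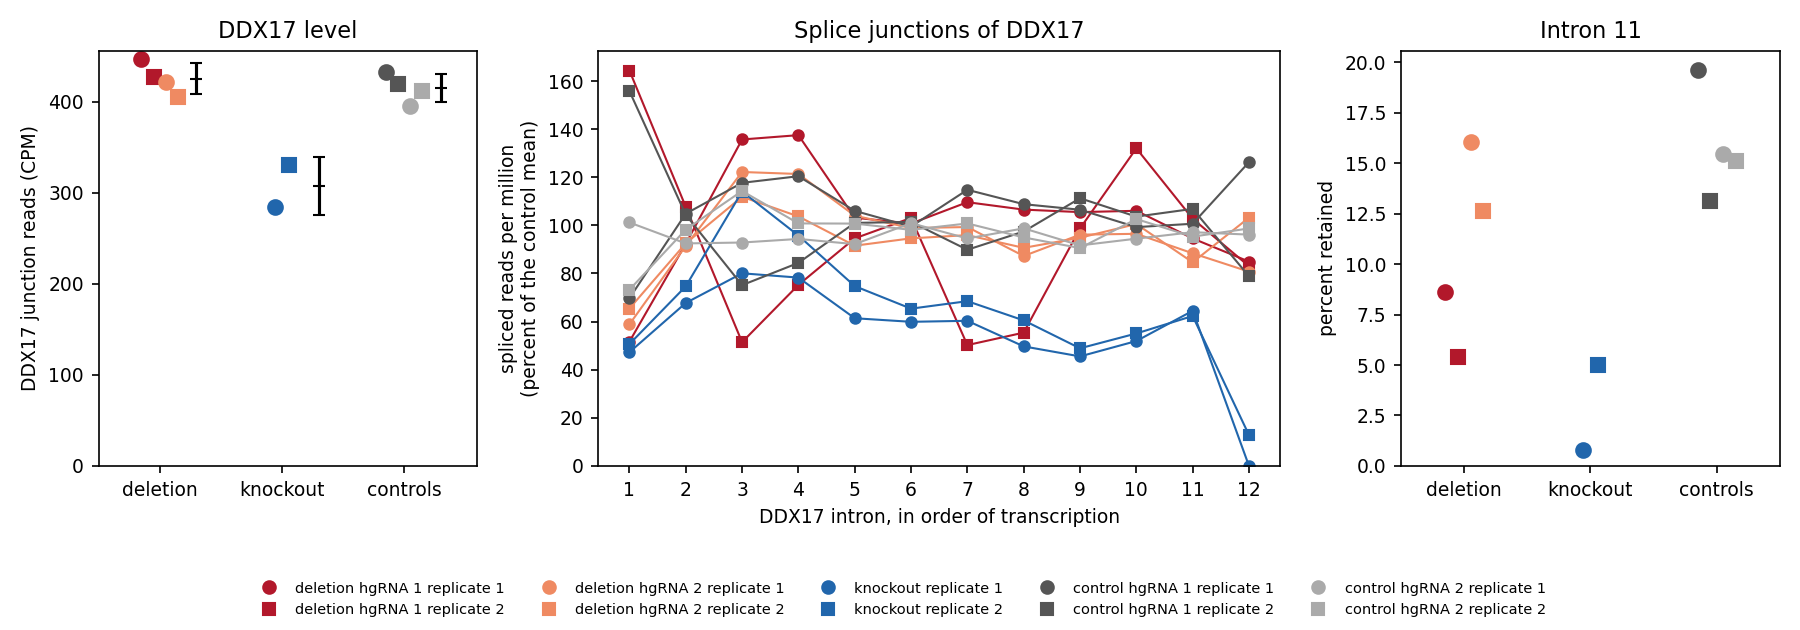
DDX17 in the 4 deletion, 2 knockout and 4 control libraries. Left, junction reads in CPM with group means and SD; middle, spliced reads per library total at each of the 12 introns as a percent of the control mean; right, percent retained of intron 11. Both knockout libraries lie below all 4 deletion libraries in DDX17 level, and at intron 12 they fall to 0 and 12.8% of the control mean.

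The knockout lost the junction that its guide covers. Reads that join any donor site of exon 12 to the last exon numbered 218, 133, 178 and 200 in deletion libraries, 15 and 41 in knockout libraries and 258, 219, 237 and 253 in control libraries. In CPM without that scaling (unscaled CPM) this was 11.2 ± 0.318 in the deletion (SD, n = 4), 1.61 ± 1.00 in the knockout (SD, n = 2) and 13.9 ± 0.393 in controls (SD, n = 4), so that the deletion held 80.3% and the knockout 11.6% of the control mean. The 3 groups did not overlap in this count. Intron 12, counted from the most downstream donor site of exon 12, had 51, 32, 39 and 58 spliced reads in deletion libraries and 0 and 7 in knockout libraries, against 22 to 102 in the 32 libraries other than the knockout, and 0 reads allow up to 3. Its percent retained was 3.8, 3.0, 6.0 and 3.3 in deletion libraries, 100 and 54.8 in knockout libraries and 6.0, 2.4, 6.3 and 1.8 in control libraries, but the knockout values rest on 3 exon-intron reads in replicate 1 and on 15 and 2 reads at the borders in replicate 2. The loss in the knockout was not limited to that junction. At introns 5, 6, 9, 10 and 11 the knockout held 68.1, 62.6, 47.2, 53.5 and 63.4% of the control mean, and no deletion library fell as low as a knockout library there or at introns 1 and 2. At introns 3 and 4 it held 97.1 and 87.0%, and at introns 3, 4, 7 and 8 deletion and knockout libraries overlapped. Over the 11 introns other than intron 12, DDX17 had 458, 387, 429 and 407 unscaled CPM of spliced reads in deletion libraries and 275 and 326 in knockout libraries.

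Around the poison exon, the deletion had a mean between knockout and controls in the retention of intron 11. Intron 11 was retained in 8.60, 5.38, 16.06 and 12.63% of transcripts in deletion libraries, 0.77 and 4.98% in knockout libraries and 19.63, 13.11, 15.44 and 15.11% in control libraries. Both hgRNA 1 libraries lay below all 4 controls, while hgRNA 2 libraries overlapped them. Reads across the upstream border of intron 11 numbered 14, 12, 46 and 18 in deletion libraries, 0 and 3 in knockout libraries and 56, 39, 49 and 40 in control libraries. Inclusion of the poison exon was low in every group, at 0.1, 0.7, 0.5 and 0.4% in deletion libraries, 0 and 0% in knockout libraries and 1.3, 0.5, 0.4 and 1.1% in control libraries. Reads that leave its donor site numbered 15, 17, 12 and 18 in deletion libraries, 0 and 3 in knockout libraries and 28, 19, 26 and 24 in control libraries. The knockout libraries were the lowest, but relative to its smaller read total hgRNA 1 replicate 2 lay above 2 of the controls, so deletion and controls overlapped. Exon 12, which lies outside the hgRNA 2 span, was included in 91.6, 91.7, 98.5 and 96.2% in deletion libraries, below 100 and 100% in knockout libraries and 99.6, 100, 100 and 98.7% in control libraries. Of 91 DDX17 and DDX5 splicing events tested, 0 were called between deletion and knockout by limma (24 at an unadjusted p under 0.05), so these values are descriptions.

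Across all genes, deletion and knockout differed at 1072 genes with both knockout libraries and at 229 without replicate 1. Of 12081 genes tested, the 1072 (8.87%) passed an adjusted p of 0.05 by limma, 521 higher (4.31%) and 551 lower (4.56%) in the deletion. The deletion differed from controls at 602 genes (4.98%), 274 higher (2.27%) and 328 lower (2.72%). The knockout differed from them at 1.76% of genes, 92 higher (0.762%) and 121 lower (1.00%), and these comparisons share libraries with the first. The first count was the largest of the 3 with both knockout libraries, but 229 is below the 602 of deletion against controls, which does not use the knockout. With only the compared libraries fitted, the count for deletion against knockout (3) was also below those for deletion (0.264% of genes) and knockout (17 genes) against controls. Of the 1072 genes, 302 passed against controls in the deletion, 146 in the knockout and 642 in neither. The hgRNA 1 and hgRNA 2 libraries differed from each other at 0 genes by limma, with 266 at an unadjusted p under 0.05, but at 2442 once hgRNA 1 replicate 1 was left out and replicate 2 stood alone for hgRNA 1. Without knockout replicate 1 the count was 229 (1.90%), with 0.911% of genes higher and 0.985% lower, and all but 6 of these were among the 1072 with the same direction. Without knockout replicate 2 it was 592, and without single deletion libraries it was 2229 (hgRNA 1 replicate 1), 1013 (hgRNA 1 replicate 2), 700 (hgRNA 2 replicate 1) and 562 (hgRNA 2 replicate 2). With the 6 libraries fitted alone it was 3, SERPINB2 and ACTA2 among them.

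The genes with the largest excess in the deletion included SERPINB2, an inhibitor of plasminogen activators, which moved away from controls in opposite directions in the 2 kinds of edited cells. SERPINB2 had 58.7, 54.5, 42.7 and 66.1 CPM in deletion libraries, 8.08 and 7.79 CPM in knockout libraries and 15.98, 13.2, 19.3 and 24.6 CPM in control libraries. The 4 deletion libraries lay above every control and both knockout libraries below every control. SERPINB2 was 6.91-fold higher in the deletion than in the knockout (log2 difference 2.79, SE 0.19, adjusted p = 3.1e-09; 1.5e-06 without knockout replicate 1). It passed against controls both in the deletion (1.62 log2, adjusted p = 7.1e-08) and in the knockout (-1.16, adjusted p = 0.0027). MYPN, which codes for the sarcomere protein myopalladin, had 22.5, 16.1, 19.6 and 19.8 CPM in deletion libraries, 6.58 and 5.84 CPM in knockout libraries and 10.8, 8.13, 11.3 and 11.98 CPM in control libraries (log2 difference 1.66, adjusted p = 8.2e-06). MYPN passed against controls in the deletion (adjusted p = 2.8e-04), and its knockout value of -0.75 log2 did not (adjusted p = 0.051). SERPINB7, another serpin, was higher in the deletion with 14.6, 7.90, 12.2 and 14.1 CPM, against 4.51 and 4.24 CPM in knockout libraries and 6.31, 4.88, 6.34 and 5.34 CPM in control libraries. LIPH, a phospholipase, had 7.78, 7.37, 6.69 and 7.35 CPM in deletion libraries and 2.88 and 2.40 CPM in knockout libraries, and the kinase gene NEK10 had 8.44, 5.77, 6.88 and 7.73 CPM in deletion libraries and 1.00 and 2.00 CPM in knockout libraries.

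In TXNRD3, SAT1, LIPG and SLC1A1 the deletion overlapped the controls and the knockout lay below them. TXNRD3, a thioredoxin reductase, had 30.2, 42.1, 29.96 and 31.6 CPM in deletion libraries, 11.7 and 9.96 CPM in knockout libraries and 29.3, 33.1, 30.4 and 32.8 CPM in control libraries. SAT1, the enzyme that acetylates spermidine and spermine for their breakdown, had 57.05, 53.96, 60.7 and 61.3 CPM in deletion libraries, 18.2 and 22.7 CPM in knockout libraries and 47.5, 48.7, 56.6 and 60.1 CPM in control libraries. The log2 differences between deletion and knockout were 1.61 for TXNRD3 (adjusted p = 1.5e-06) and 1.52 for SAT1 (adjusted p = 5.4e-09), and both passed without knockout replicate 1 (adjusted p = 1.1e-04 and 3.4e-06). LIPG, endothelial lipase, had 6.16, 7.01, 6.56 and 7.13 CPM in deletion libraries, 1.63 and 2.46 CPM in knockout libraries and 6.41, 6.93, 6.01 and 4.96 CPM in control libraries (adjusted p = 3.8e-04; 0.032 without knockout replicate 1). SLC1A1, a glutamate transporter, had 7.98, 11.7, 9.71 and 9.76 CPM in deletion libraries, 3.63 and 3.09 CPM in knockout libraries and 7.62, 6.20, 8.18 and 8.09 CPM in control libraries (adjusted p = 9.2e-05; 0.0041 without knockout replicate 1). ADAMTS14, a procollagen-processing protease, passed with both knockout libraries (log2 difference 1.86, adjusted p = 0.0032) but not without replicate 1 (1.20, adjusted p = 0.17). The same held for COL4A6 (collagen IV), IDUA (a lysosomal iduronidase), ALS2CL and NEK10, whose log2 differences were 1.87, 1.52, 1.58 and 2.31 with both knockout libraries and 0.98, 0.78, 1.02 and 1.84 without replicate 1. In COL4A6, ALS2CL and NEK10 all 4 deletion libraries lay above every control. NEK10 passed against controls in the deletion (1.07 log2, adjusted p = 0.015), and COL4A6, IDUA, ALS2CL and NEK10 did not pass between knockout and controls (adjusted p = 0.33, 0.13, 0.26 and 0.16).

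Genes lower in the deletion were led by ACTA2, smooth muscle actin, and HES1, a transcriptional repressor and Notch target. ACTA2 had 187, 186, 232 and 198 CPM in deletion libraries, 736 and 649 CPM in knockout libraries and 461, 444, 399.7 and 396 CPM in control libraries. Every deletion library lay below and every knockout library above the controls. ACTA2 was 3.45-fold higher in the knockout than in the deletion (log2 difference -1.79, SE 0.11, adjusted p = 1.3e-09; 6.7e-07 without knockout replicate 1), and it passed against controls in the deletion (-1.08 log2) and in the knockout (0.70 log2). HES1 had 3.18, 3.64, 2.96 and 3.12 CPM in deletion libraries, 10.2 and 11.9 CPM in knockout libraries and 8.36, 7.71, 6.90 and 7.02 CPM in control libraries. HES1 fell against controls in the deletion (-1.22 log2, adjusted p = 1.4e-04), and its value in the knockout was 0.56 log2 (adjusted p = 0.098). BGN, the matrix proteoglycan biglycan, had 10.8, 9.58, 12.2 and 9.65 CPM in deletion libraries, 34.4 and 33.6 CPM in knockout libraries and 31.8, 41.9, 29.6 and 22.5 CPM in control libraries, so that here the knockout overlapped the controls. Its log2 difference between deletion and knockout was -1.69 (SE 0.17, adjusted p = 1.5e-06). IGFBP5, which binds insulin-like growth factors, and MACROD1, an ADP-ribosylhydrolase, were raised in the knockout. IGFBP5 had 19.7, 26.4, 24.3 and 20.6 CPM in deletion libraries, 70.02 and 78.3 CPM in knockout libraries and 31.6, 39.03, 34.4 and 27.5 CPM in control libraries. MACROD1 had 7.78, 6.30, 6.37 and 7.35 CPM in deletion libraries, 24.3 and 20.6 CPM in knockout libraries and 10.1, 11.6, 10.1 and 9.28 CPM in control libraries. Both passed against controls in both kinds of edit, with -0.55 and -0.54 log2 in the deletion and 1.17 and 1.13 in the knockout.

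Of the other genes with the largest deficit, the secreted protein gene CRISPLD2 had 10.1, 13.3, 10.7 and 8.66 CPM in deletion libraries and 27.1 and 24.96 CPM in knockout libraries, and IFITM10 had 10.8, 14.9, 12.6 and 11.4 CPM in deletion libraries and 27.9 and 36.2 CPM in knockout libraries. CA9, the hypoxia-induced carbonic anhydrase, had 4.45, 12.7, 6.81 and 5.54 CPM in deletion libraries, 19.4 and 22.6 CPM in knockout libraries and 11.5, 25, 13.97 and 13.6 CPM in control libraries. COL1A1, the collagen I alpha 1 chain, had 265, 1019.6, 375 and 307 CPM in deletion libraries, 1228 and 1422 CPM in knockout libraries and 780.0, 1473, 874 and 689 CPM in control libraries. In COL1A1 the replicate 2 library of hgRNA 1 stood far above the other 3 deletion libraries, as control hgRNA 1 replicate 2 stood above the other controls. The log2 difference of COL1A1 was -1.65 (adjusted p = 0.0095), -1.75 without knockout replicate 1 (adjusted p = 0.087) and -2.25 without both that library and hgRNA 1 replicate 2 (adjusted p = 0.0029). The genes KRT81, MEX3D, MARCKSL1 and FBXO5 likewise did not pass without knockout replicate 1. OLFML2A passed with and without it (adjusted p = 0.003 and 0.018). Of the 14 higher and 14 lower genes named for the size of their difference, 9 in each direction passed without knockout replicate 1. None of these 28 genes overlapped between deletion and knockout, which was a condition for naming them and held for 29.7% of all genes tested. With each hgRNA alone against the knockout, COL4A6, IDUA and FBXO5 passed by limma for hgRNA 1 but not for hgRNA 2. COL1A1 passed for hgRNA 2 but not for hgRNA 1, and MARCKSL1 for neither.

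**Figure D2:**
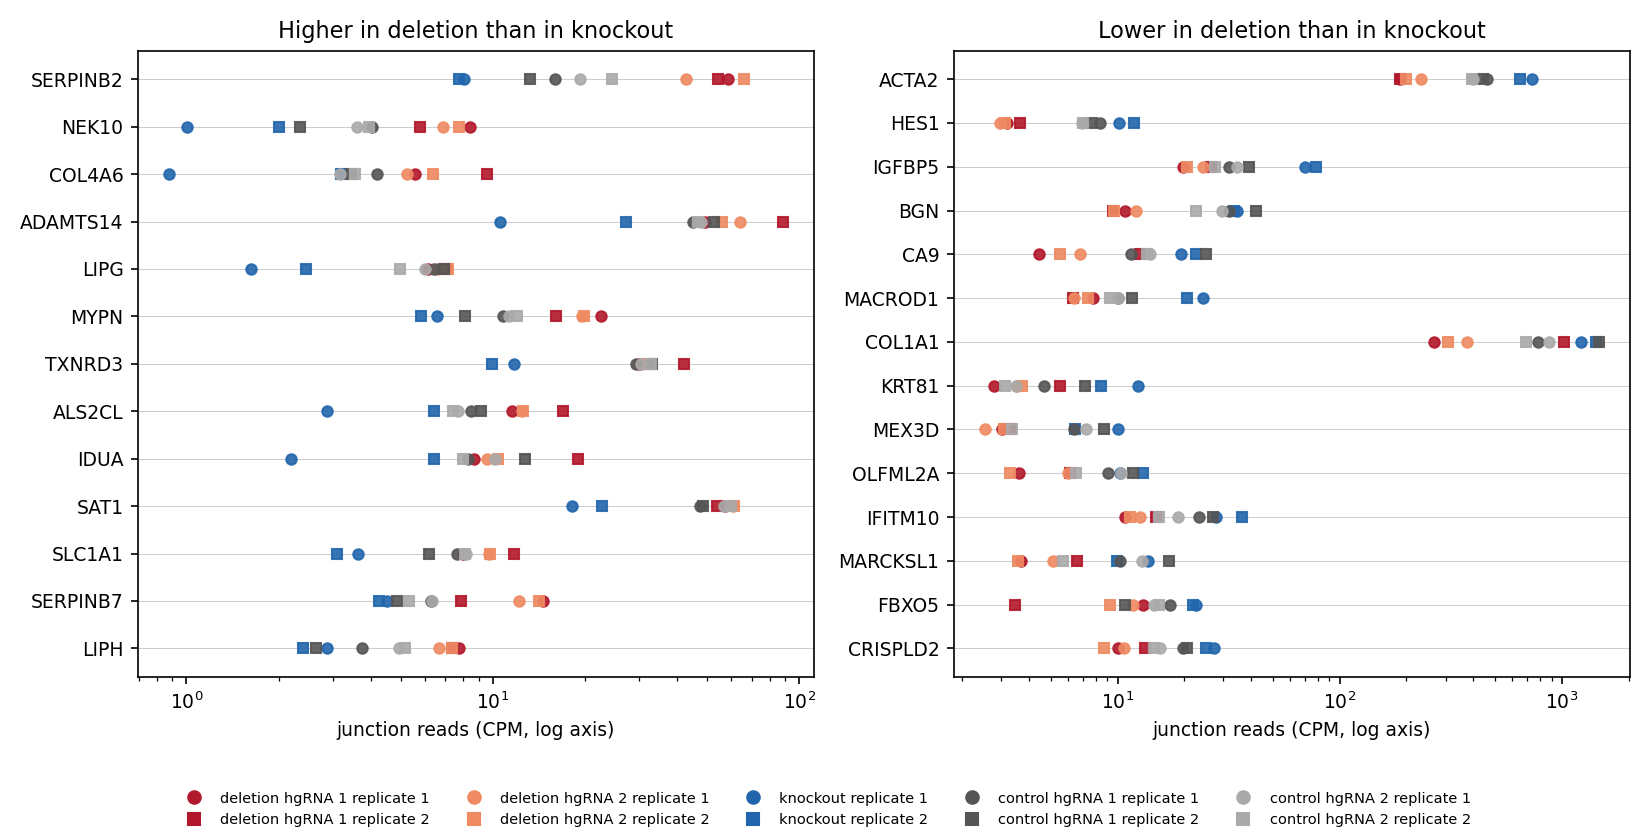
Junction reads in CPM (log axis) of 13 genes higher and the 14 lower in DDX17 deletion than in knockout, one point per library, with deletion libraries in red, knockout in blue and controls in grey. SERPINB2 and ACTA2 have all controls between deletion and knockout, whereas TXNRD3 and SAT1 have deletion libraries among or above the controls.

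Gene lists were read against the 8.87% of all genes that passed and the median log2 difference of -0.004 over all genes. Counts against controls stand beside 2.27% of all genes higher and 2.72% lower in the deletion. For the knockout against controls these shares are 0.762% and 1.00%. Counts without knockout replicate 1 stand beside the smaller share of all genes given above for that fit. Genes of mitosis and DNA replication were lower in the deletion than in the knockout. By list median the controls lay between, except that the replication median of deletion hgRNA 1 replicate 2 (-0.06 log2) overlapped that of control hgRNA 2 replicate 2 (-0.07 log2). Of 34 genes of mitosis and G2/M, 25 passed and all were lower, with a median log2 difference of -0.57. Of 39 genes of DNA replication and G1/S, 21 were lower and 1 was higher, with a median of -0.49. MCM6, a subunit of the replicative helicase, had 90.04, 95.2, 79.2 and 83.1 CPM in deletion libraries, 156 and 144 CPM in knockout libraries and 118.6, 106, 108.6 and 107 CPM in control libraries, with no overlap between the 3 groups. Its log2 difference was -0.79 (SE 0.09, adjusted p = 1.1e-05), and it passed against controls in the deletion (-0.34 log2) and in the knockout (0.44). MCM7 and MCM5, of the same helicase, differed by -0.71 and -0.59 log2, and GINS1 by -0.95. CDC20, an activator of the anaphase-promoting complex, had 81.05, 86.1, 78.2 and 73.7 CPM in deletion libraries, 151 and 125 CPM in knockout libraries and 99.5, 112, 97.04 and 94.6 CPM in control libraries (log2 difference -0.79, adjusted p = 3.0e-04). The spindle genes TPX2, KIF2C and KIF20A differed by -0.54, -0.64 and -0.57 log2. TPX2 lay at the control level in the deletion (-0.08 log2, adjusted p = 0.62) and above it in the knockout (0.46 log2, adjusted p = 0.0058). The median of the mitosis genes relative to the control mean was -0.15, -0.61, -0.30 and -0.36 log2 in deletion libraries and 0.18 and 0.26 in knockout libraries, and that of the replication genes was -0.23, -0.06, -0.36 and -0.36 in deletion libraries and 0.16 and 0.15 in knockout libraries. Without knockout replicate 1 the medians were -0.56 and -0.48, and 7 genes of each list passed, all lower. Against controls, 7 mitosis and 8 replication genes were lower in the deletion, and 2 and 3 were higher in the knockout.

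Genes of the integrated stress response and amino acid synthesis, induced by ATF4, were lower in the deletion: of 25 tested, 10 were lower and 1, SESN2, higher, with a median log2 difference of -0.28. ASNS, asparagine synthetase, had 24.9, 20.6, 23.97 and 23.8 CPM in deletion libraries, 59.4 and 56.4 CPM in knockout libraries and 38.8, 34.99, 35.2 and 40.9 CPM in control libraries. PSAT1, of serine synthesis, had 39.3, 37.3, 38.04 and 34.7 CPM in deletion libraries, 94.5 and 78.2 CPM in knockout libraries and 51.9, 53.5, 50.8 and 49.3 CPM in control libraries. Both lay below every control in the deletion and above every control in the knockout, with log2 differences of -1.31 (SE 0.12, adjusted p = 2.0e-07) and -1.20 (SE 0.12, adjusted p = 1.5e-06). The mitochondrial folate enzymes SHMT2 and MTHFD2 were at the control level in the deletion and higher in the knockout. SHMT2 had 169, 155, 159 and 159 CPM in deletion libraries, 328 and 266 CPM in knockout libraries and 185, 199, 169 and 163 CPM in control libraries. Against controls, SHMT2 and MTHFD2 passed in the knockout (0.72 and 0.77 log2), and their values in the deletion were -0.15 and -0.07 log2 (adjusted p = 0.51 and 0.82). ASNS, PSAT1, SHMT2 and MTHFD2 were the 4 genes of the list that passed without knockout replicate 1, and 6 genes of the list were higher in the knockout than in controls.

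Sterol synthesis genes were higher in the deletion than in the knockout, and their median in the deletion lay near the controls (-0.01 log2). Of 23 tested, 7 passed and all were higher in the deletion, with a median log2 difference of 0.38, and 22 of the 23 estimates were above 0. HMGCS1, which makes the precursor of mevalonate, had 74.3, 55.1, 73.2 and 77.8 CPM in deletion libraries, 29.7 and 35.8 CPM in knockout libraries and 98.5, 78.5, 81.1 and 93.6 CPM in control libraries. MSMO1, a sterol oxidase, had 64.3, 43.8, 67.5 and 68.3 CPM in deletion libraries, 35.9 and 28.2 CPM in knockout libraries and 64.9, 55.5, 64.99 and 64.00 CPM in control libraries. FDFT1, squalene synthase, had 239.7, 240.1, 237 and 255 CPM in deletion libraries, 183 and 151 CPM in knockout libraries and 226, 215, 222.9 and 225 CPM in control libraries. No knockout library reached the lowest deletion or control library in these 3 genes. In the deletion, HMGCS1 lay below every control and FDFT1 above every control, while MSMO1 overlapped them. Their log2 differences were 1.09, 0.93 and 0.55 (adjusted p = 1.1e-04, 0.0011 and 3.2e-04), and STARD4, a sterol carrier, differed by 0.67. Without knockout replicate 1 the median was 0.51 and 4 genes passed, all higher. Against controls, 7 of the 23 were lower in the knockout (1.00% of all genes) and 2 in the deletion (2.72% of all genes).

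Contractile genes that serum response factor and myocardin-related factors control were lower in the deletion, with 11 of 28 lower and 2 higher and a median log2 difference of -0.29. ACTA2 led them. TAGLN, the actin-binding protein transgelin, had 974, 1187, 1014 and 1105 CPM in deletion libraries, 1869 and 1490.2 CPM in knockout libraries and 1114, 1206, 1092 and 1143 CPM in control libraries. ACTG1, cytoplasmic gamma actin, had 2085, 1996, 2028 and 1996 CPM in deletion libraries, 3798 and 2717 CPM in knockout libraries and 2805, 3387, 2897 and 2412 CPM in control libraries, a log2 difference of -0.67 (adjusted p = 0.013). The 2 genes that were higher were MYPN and ANKRD1. Without knockout replicate 1 only ACTA2 and MYPN passed, with a list median of -0.38.

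Targets of p53 were on balance higher in the deletion than in the knockout, 7 of 31 higher and 1, PLK2, lower (-0.40 log2), with a median log2 difference of 0.32. Against controls, 0 of them were higher and 1 was lower in the deletion, with a median of 0.17 log2. In the knockout 0 were higher and 1 was lower than in controls, with a median of -0.15 log2. FUCA1, a lysosomal fucosidase, had 40.7, 31.2, 38.2 and 38.5 CPM in deletion libraries, 20.98 and 17.6 CPM in knockout libraries and 36.9, 32.1, 36.7 and 38.05 CPM in control libraries (log2 difference 0.95, adjusted p = 1.5e-04). FUCA1 overlapped the controls in the deletion and was the 1 gene of the list that passed without knockout replicate 1. SESN1 and EDA2R differed by 0.54 and 0.63 log2. Of 28 interferon response genes 5 passed and all were higher, with a median of 0.26. STAT2, a transcription factor of the interferon response, had 173, 194.7, 176 and 169.9 CPM in deletion libraries, 117.7 and 129 CPM in knockout libraries and 162, 166, 165 and 166 CPM in control libraries (log2 difference 0.53, adjusted p = 2.7e-04). TRIM22 and IFI44 differed by 0.69 and 1.25 log2, and STAT2 passed without knockout replicate 1. The interferon list had a median of -0.11 log2 in the deletion and -0.41 in the knockout against controls.

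**Figure D3:**
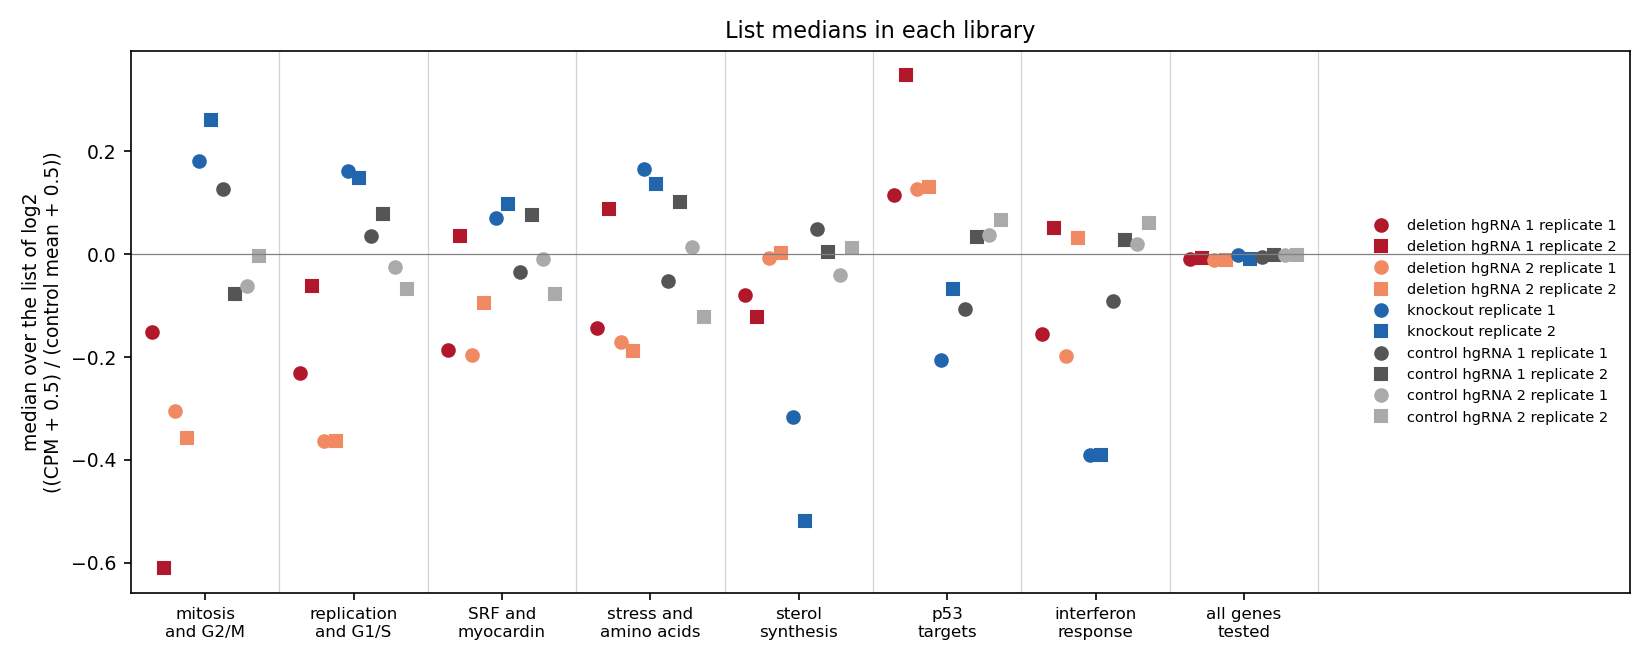
Median over the tested genes of 7 lists, and over all genes tested, of the log2 ratio of CPM to the control mean, one point per library. Mitosis and replication genes are below 0 in all 4 deletion libraries and above 0 in both knockout libraries, and sterol and interferon genes are lowest in the knockout libraries.

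Secreted proteins of plasminogen activation and signalling moved by gene. Of 18 genes of plasminogen activation and serpins, 4 were higher and 2 lower, with a median log2 difference of 0.05. PLAT, tissue plasminogen activator, had 558, 565, 569 and 567 CPM in deletion libraries, 381 and 352 CPM in knockout libraries and 345, 325, 390.0 and 376 CPM in control libraries. PLAT was thus above every control in the deletion and within their range in the knockout (log2 difference 0.63, adjusted p = 2.6e-04; 0.0044 without knockout replicate 1). S100A10, which binds plasminogen activator at the cell surface, was lower (-0.49 log2). Of 29 genes of BMP and TGF-beta signalling, 2 were higher and 6 lower, with a median of -0.30. BMPER, a secreted BMP-binding protein, had 44.8, 26.4, 37.2 and 44.1 CPM in deletion libraries, 20.1 and 15.8 CPM in knockout libraries and 13.4, 11.1, 16.6 and 17.8 CPM in control libraries. BMPER and the BMP co-receptor gene RGMB (0.64 log2) were the 2 that passed without knockout replicate 1. ID3, a BMP target, and the ligand gene TGFB1 were lower, by -0.76 and -0.55 log2. Of 15 Notch, Wnt and YAP targets, 2 were higher and 2 lower. DKK1, a secreted Wnt inhibitor, had 33.1, 36.3, 25.9 and 32.2 CPM in deletion libraries, 16.97 and 14.4 CPM in knockout libraries and 15.5, 15.1, 19.9 and 19.4 CPM in control libraries (log2 difference 1.02, adjusted p = 0.0014). JAG1, a Notch ligand, was lower (-0.46 log2), and ANKRD1, a YAP target, higher (0.49 log2). Of 19 NF-kB targets and cytokines, 1, IL1B, was higher (22.03, 28.8, 25.4 and 24.3 CPM in deletion libraries and 16.3 and 14.03 CPM in knockout libraries).

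Matrix and hypoxia genes were also mixed. Of 34 collagen and matrix genes, 3 were higher and 6 lower, with a median log2 difference of -0.04. That median was -0.25 without knockout replicate 1, so the balance of this list depended on that library. The 3 higher genes included TGFBI and LOX, a collagen cross-linking oxidase, and the 6 lower ones included BGN, COL1A1 and the matrix glycoprotein genes THBS1 and TNC (-0.40 and -0.62 log2). TIMP3, a metalloproteinase inhibitor and also lower, was near the limit of detection, with 0.152, 0.710, 0.252 and 0.110 CPM in deletion libraries and 1.44 and 0.973 CPM in knockout libraries. LOX had 559.7, 354, 525 and 534 CPM in deletion libraries and 357 and 327 CPM in knockout libraries, and the 2 groups overlapped in hgRNA 1 replicate 2 (log2 difference 0.51, adjusted p = 0.031). Of 29 hypoxia and glycolysis genes, 2 were higher and 4 lower, with a median of -0.17. VEGFA, an angiogenic growth factor, had 59.8, 61.6, 68.7 and 58.5 CPM in deletion libraries, 82.9 and 131 CPM in knockout libraries and 93.6, 104, 79.2 and 81.6 CPM in control libraries (log2 difference -0.75, adjusted p = 0.0041; 9.5e-04 without knockout replicate 1). PDK1, a kinase that restrains pyruvate oxidation, was lower as well (-0.57 log2).

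The lists of RNA-processing genes differed in how many members passed. Of 37 DEAD and DEAH box helicases, DDX17 was higher and DDX39A and DDX18 were lower (-0.77 and -0.51 log2), a share of 8.11% against 8.87% of all genes, and none of these 3 passed without knockout replicate 1. Of 23 genes of microRNA processing and microRNA host transcripts, 4 were lower (17.4%), among them the Argonaute gene AGO2 (-0.63 log2, adjusted p = 0.048), ILF2 (-0.36) and the host transcript MIR31HG (-0.91), with MCM7, which also stands in the replication list and was the 1 that passed without knockout replicate 1. Of 30 hnRNP and PTBP family genes, all 5 that passed (16.7%) were lower, with a median of -0.26, and 1, QKI, passed without knockout replicate 1. QKI, a splicing regulator, had 87.01, 53.4, 90.8 and 79.1 CPM in deletion libraries, 149.8 and 169 CPM in knockout libraries and 117.8, 95.9, 98.8 and 108 CPM in control libraries. QKI was below every control in the deletion and above every control in the knockout (log2 difference -1.06, SE 0.15, adjusted p = 1.4e-04; 0.0024 without knockout replicate 1). PTBP1, HNRNPF and HNRNPD were lower by -0.47, -0.56 and -0.53 log2. Of 27 SR protein, TRA2 and CLK genes, 2 passed and were lower (TRA2B at -0.47 and SRSF1 at -0.35 log2), a share of 7.41% against 8.87%. The list as a whole was not lower, with 17 of the 27 estimates above 0 and a median of 0.10. Its median was -0.19 without knockout replicate 1. Among 27 genes listed under nonsense-mediated decay factors and snoRNA hosts, 1 passed. It was GADD45A, which is itself neither of these and was higher (0.83 log2). That list had a median of 0.15, and of -0.08 without knockout replicate 1.

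**Figure D4:**
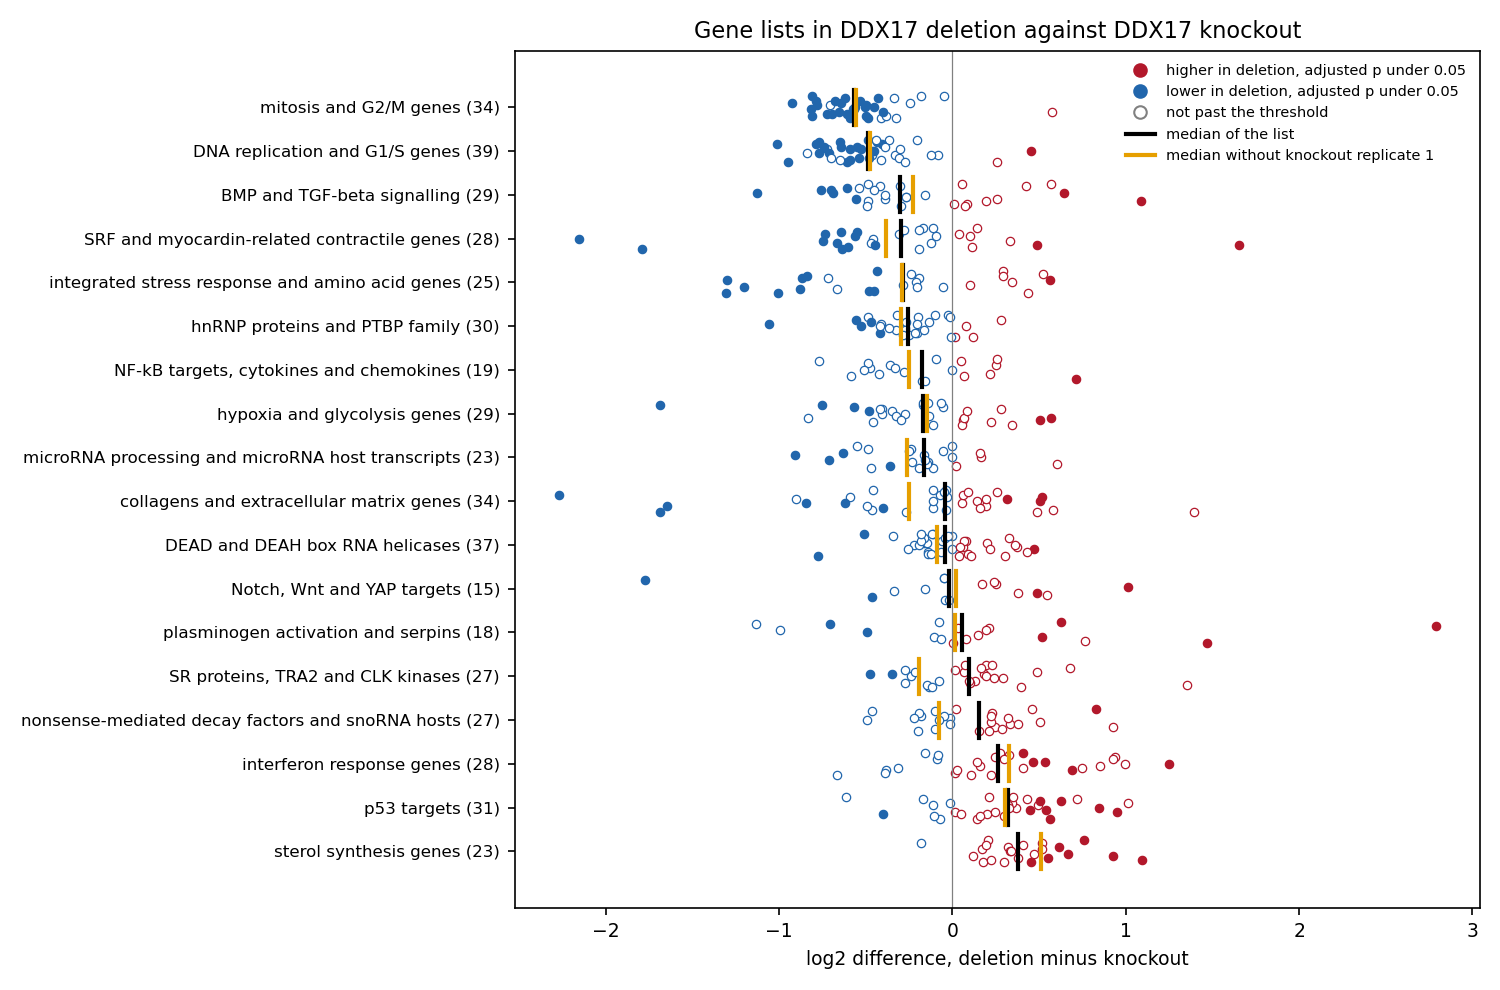
Log2 differences between DDX17 deletion and knockout for the tested genes of 18 lists, with the number tested in parentheses, one point per gene. Filled points passed an adjusted p of 0.05, and the black and orange bars mark list medians of -0.57 and -0.56 for mitosis genes and 0.38 and 0.51 for sterol genes with and without knockout replicate 1.

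The cells carried few of the defining markers of mature retinal pigment epithelium in any group. Of its 19 markers, 12 stayed under 1 CPM in all 10 libraries and 4 were at 0, while the keratins KRT8 and KRT18 and the transcription factors PAX6, MITF and OTX2 were detected. Of the 9 tested, OTX2 and TIMP3 were lower in the deletion and none was higher. Against the knockout, OTX2 passed by limma with hgRNA 2 alone (-1.33 log2, adjusted p = 0.0029) but not with hgRNA 1 alone (-0.71 log2, adjusted p = 0.074). OTX2 had 3.03, 2.93, 2.02 and 1.86 CPM in deletion libraries, 5.20 and 4.64 CPM in knockout libraries and 4.31, 5.42, 3.28 and 3.94 CPM in control libraries, so that every deletion library lay below all others. Its log2 difference was -1.02 (adjusted p = 0.0026; 0.059 without knockout replicate 1), and it passed against controls in the deletion (-0.78 log2, adjusted p = 0.0088). The summed unscaled level of the list was 1129 to 1154 CPM in deletion libraries, 1086 to 1253 CPM in knockout libraries and 974 to 1108 CPM in control libraries. Most of this sum was KRT8 and KRT18, at 495 to 684 and 423 to 619 CPM over the 10 libraries. Markers of fibroblasts summed to 7818 to 10075 CPM in deletion libraries, 9356 to 10159.7 CPM in knockout libraries and 8867 to 10583 CPM in control libraries. Most of that sum was VIM, at 7168 to 8749 CPM. Of 11 fibroblast markers tested, 1 was higher and 2 lower. No endothelial, epithelial, leukocyte or neuronal marker of the 15 tested passed between deletion and knockout by limma.

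Splicing differed at few events between deletion and knockout, and more of the differing exons departed from controls in the knockout than in the deletion. Of 238105 events covered by 20 or more reads in each of the 6 libraries, 26 (0.0109%) passed, with adjusted p under 0.05 and 10 or more percentage points between the groups. They were 21 exons (0.0239% of exons tested), 15 with more and 6 with less inclusion in the deletion, 3 introns (0.00505%) with less retention in the deletion and a pair of alternative donor sites of RC3H1. Of the 21 exons, 12 also passed between knockout and controls (0.00961% of all events) and 1 between deletion and controls (0.000412%). Both comparisons share libraries with the one that chose these exons, so the counts are descriptions and not separate tests. The libraries did not overlap for 25 of the 26, as for 11897 of all 238105 events. Without knockout replicate 1, 6 of the 26, all exons, still passed, in a comparison that called 0.0111% of events.

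MAN2A2, a Golgi mannosidase, had a 202-base exon (chr15:90903231-90903432) that was included in 63.4, 62.9, 83.6 and 82.5% of transcripts in deletion libraries, 34.5 and 36.8% in knockout libraries and 75, 82.6, 70.4 and 61.9% in control libraries. The difference was 37.4 points (adjusted p = 0.036; 0.21 without knockout replicate 1), on 39 to 65 reads per library. MBD1, a protein that binds methylated DNA, had a 165-base exon with 66.4, 57.8, 63.6 and 55.4% inclusion in deletion libraries, 30.4 and 24.5% in knockout libraries and 46.03, 56.7, 57.3 and 52.2% in control libraries. That difference was 33.3 points (adjusted p = 0.0047; 0.025 without knockout replicate 1). RCC1, the exchange factor of the GTPase Ran, had a 51-base exon with 39.9, 52.4, 32.1 and 35.4% inclusion in deletion libraries, 10.1 and 10.1% in knockout libraries and 33.3, 40.5, 44.5 and 40.6% in control libraries. The difference of 29.8 points passed with both knockout libraries (adjusted p = 0.0034) and without replicate 1 (0.046), and the 2 knockout libraries were closely alike. MKNK2, a kinase that phosphorylates the translation factor eIF4E, had a 220-base exon with 38.2, 50.2, 32.6 and 37.8% inclusion in deletion libraries, 12.4 and 9.6% in knockout libraries and 41.4, 46.5, 41.6 and 54.4% in control libraries. Its difference was 28.7 points (adjusted p = 0.019; 0.071 without knockout replicate 1). In the opposite direction, a 111-base exon of the kinase MINK1 was included in 50.98, 30.7, 46.5 and 51.4% in deletion libraries, 76.4 and 83.05% in knockout libraries and 48.1, 44.9, 43.2 and 41.2% in control libraries (-34.8 points, adjusted p = 0.021; 0.056 without knockout replicate 1). In all 5 exons the knockout lay outside the range of the controls.

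The other exons were chosen after their values were seen. KLC1, a light chain of the motor kinesin, had 2 such exons, and the 82-base one was included in 32.01, 35.2, 24.8 and 28.6% in deletion libraries, 9.5 and 8.9% in knockout libraries and 26.4, 27.97, 26.3 and 28.6% in control libraries. Its difference of 20.9 points kept its call without knockout replicate 1 (adjusted p = 6.8e-04 and 0.0079). TPM1, tropomyosin 1, had a 76-base exon with 83.9, 82.3, 84.3 and 84.8% inclusion in deletion libraries, 62.6 and 61.2% in knockout libraries and 76.9, 76.9, 77.5 and 78.9% in control libraries. Its 63-base exon, downstream of the first, went the other way, with 25.5, 23.1, 26.9 and 25.5% in deletion libraries, 46.3 and 49.7% in knockout libraries and 34.3, 31.5, 31.1 and 30.9% in control libraries (adjusted p = 0.026; 0.11 without knockout replicate 1). In both TPM1 exons the controls lay between deletion and knockout with no overlap. MYLK, myosin light chain kinase, had a 207-base exon with 56.8, 67.3, 58.7 and 57.6% inclusion in deletion libraries, 33.9 and 34.2% in knockout libraries and 56.8, 64.3, 58.5 and 60.1% in control libraries (adjusted p = 0.028; 0.17 without knockout replicate 1). MOV10, an RNA helicase, had a 218-base exon that was included in 73.6 and 35.01% in hgRNA 1 libraries and in 100% in hgRNA 2, knockout and control libraries, so that this call came from hgRNA 1 alone. The RCC1 exon, whose length is a multiple of 3, and the 76-base TPM1 exon are coding exons in GENCODE v29 and kept their calls without knockout replicate 1, and their sequences are given for that reason.
RCC1 exon, chr1:28530523-28530573, plus strand: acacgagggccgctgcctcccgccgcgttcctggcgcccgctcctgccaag
TPM1 exon, chr15:63061198-63061273, plus strand: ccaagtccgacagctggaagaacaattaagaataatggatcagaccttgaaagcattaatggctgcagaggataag
Of the 3 introns, PTPN1, a tyrosine phosphatase gene, retained its intron in 19.9, 19.2, 21.1 and 16.9% in deletion libraries, 39.7 and 36.9% in knockout libraries and 21.7, 21.3, 18.9 and 19.04% in control libraries. The intron of the lysosomal mannosidase gene MAN2B2 was retained in 9.3, 13.3, 13.99 and 12.8% in deletion libraries, 33.8 and 31.2% in knockout libraries and 6.2, 5.7, 8.7 and 7.1% in control libraries, and that of the histone gene HIST1H2BC in 74.9, 66.7, 68.2 and 71.7% in deletion libraries and 95.95 and 94.8% in knockout libraries. None of the 3 passed without knockout replicate 1 by limma (adjusted p = 0.22, 0.27 and 0.26).

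**Figure D5:**
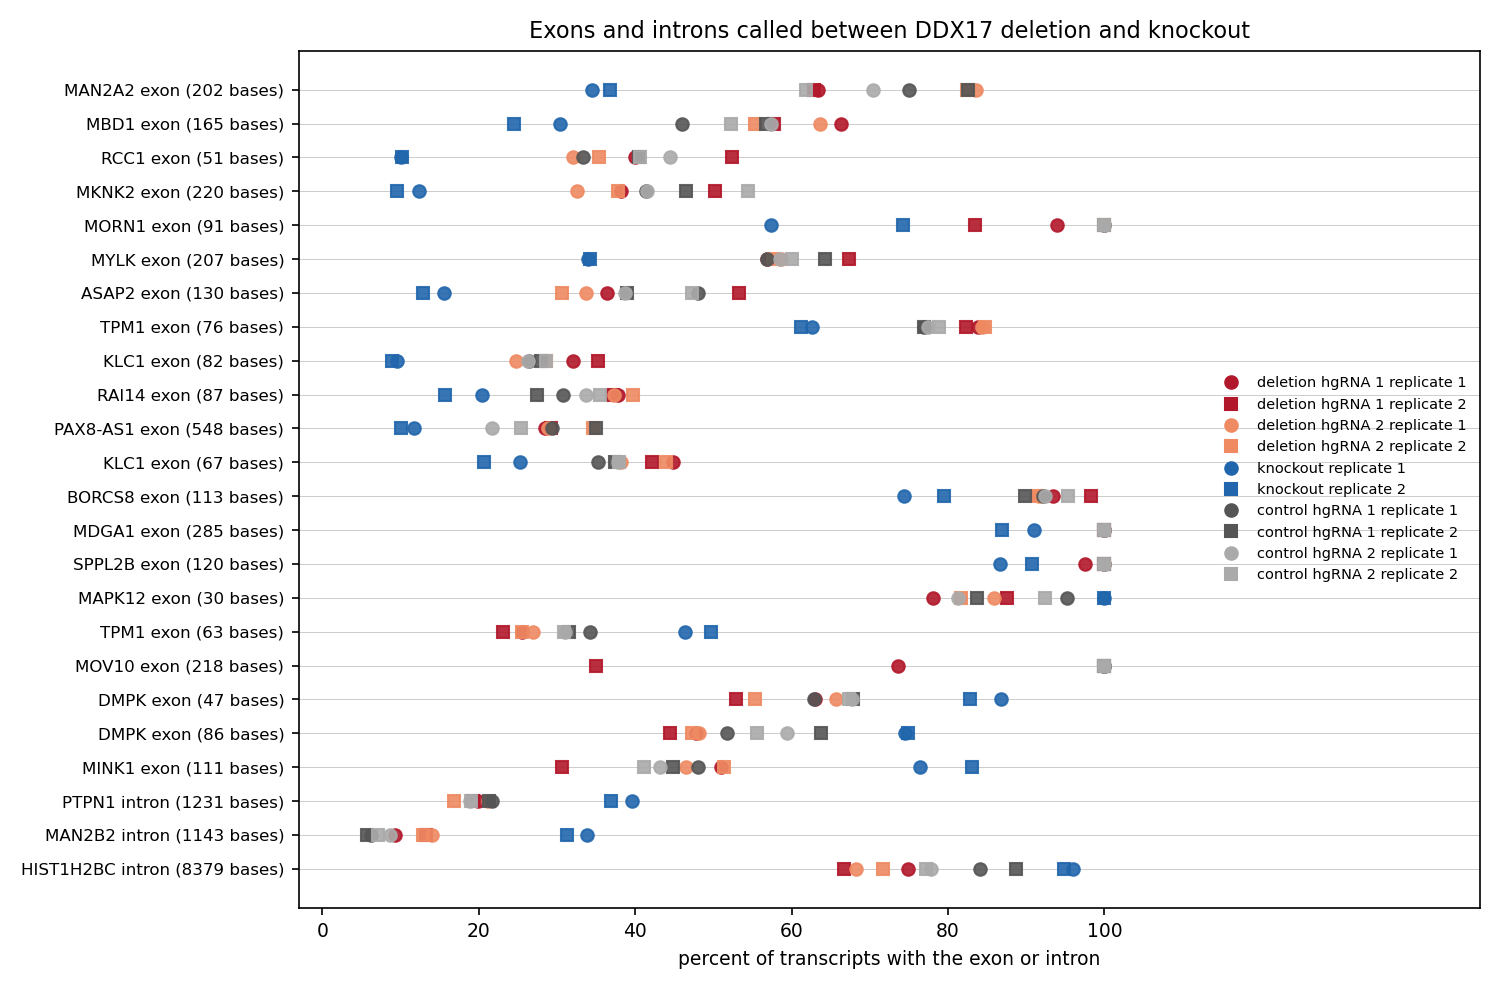
Percent of transcripts with each of the 21 exons and 3 introns called between DDX17 deletion and knockout, one point per library, exons above introns; points at 100 coincide. For MAN2A2, RCC1, MKNK2 and MYLK the deletion libraries lie among or near the controls and the 2 knockout libraries apart from both.

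The difference between deletion and knockout was also set against the same difference in DDX5, whose deletion and knockout libraries are separate from those of DDX17. By limma, the 2 differences departed from each other at 307 of 12081 genes (2.54%), 156 higher and 151 lower for DDX17. DDX17 and DDX5, the genes edited in the 2 pairs, departed by 0.75 log2 (adjusted p = 0.0018) and -1.59 log2 (adjusted p = 8.8e-04). DDX17 differed by 0.47 log2 in the DDX17 pair and -0.28 in the DDX5 pair. DDX5 differed by -0.14 log2 in the DDX17 pair and 1.44 in the DDX5 pair, so its departure came mostly from the pair in which it was itself edited. Of the 28 genes named by size, 8 passed this test. The others did not, and their differences in the DDX5 pair were alike, smaller or larger by gene. Examples are LIPG (1.71 log2 in the DDX17 pair and 1.68 in the DDX5 pair), NEK10 (2.31 and 1.23) and CA9 (-1.68 and -3.77). TXNRD3 differed by 1.61 log2 between DDX17 deletion and knockout and by 0.01 between DDX5 deletion and knockout, and SAT1 by 1.52 and -0.05 (adjusted p of the difference = 8.9e-05 and 1.3e-06). MACROD1 differed by -1.67 log2 in the DDX17 pair and 0.68 in the DDX5 pair, and CRISPLD2 by -1.31 and 0.41 (adjusted p of the difference = 3.9e-07 and 5.4e-05). ACTA2 was lower in the deletion in both pairs, with log2 differences of -1.79 in the DDX17 pair and -0.69 in the DDX5 pair (adjusted p of the difference = 2.7e-04). SERPINB2 was 2.79 log2 higher in the DDX17 pair and 2.41 in the DDX5 pair, and HES1 differed by -1.77 and -0.86, with an adjusted p of the difference of 0.47 and 0.086.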

How the data were processed

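Total RNA depleted of ribosomal RNA was sequenced as strand-specific libraries, per the labels' protocols. The authors' deposited splicing table gives, per event and library, a percent value and the counts of reads at each junction; how reads were aligned to make it is not given in the sources used here. A second deposited table gives RPKM per group and log2 fold changes with p-values against controls. The submitters' processing notes name Salmon 1.10 and edgeR. Whole junction counts of 192950 introns were summed per gene (29324 genes), and 2 columns that match no sample here were not used. Genes needed 10 reads at median depth in 2 libraries and 15 in all, which left 12081. Counts were scaled by trimmed means of log ratios and fitted with limma voom 3.58.1 (R 4.3.3), with all 34 libraries in 17 hgRNA groups, so that the spread comes from all groups (17 residual and 5.83 prior degrees of freedom). The deletion is the mean of its 2 hgRNA coefficients, and p-values were adjusted by Benjamini-Hochberg over all genes. Events entered as log2 ratios of inclusion to exclusion reads with 1 added. They needed 20 reads in all 6 libraries, and calls needed 10 percentage points. The gene fit and the event fit of deletion against knockout were tested on simulated data with known changes, and the other steps were not. The members and lists were chosen with earlier results of these data known. Genes named by size were the 14 with the largest difference in each direction that passed, had a mean log2 CPM of at least 2, had the same sign for both hgRNAs and did not overlap between groups. Each list names up to 4 passing members by smallest p. Some genes that meet these rules count in every total and are not reported here. Alternatives covered scaling, filters, a GC and length trend, groups, left-out libraries and a replicate block. Guides were matched to GENCODE v29 transcripts, and GENCODE is the source of every printed genomic sequence.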

Additional observations from a re-analysis of the deposited data

Results flagged for a closer look

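Values were set against the other libraries of their group by Dixon's test, which chance alone flags in about 1 of 20 groups; of 202 groups, 16 held such a value. In deletion hgRNA 1 replicate 2, the shallowest library, TXNRD3 (42.1 CPM), IDUA (18.9 CPM), COL1A1 (1019.6 CPM), PFN1 (2028 CPM), DDX18 (41.7 CPM), DDX39A (73.0 CPM) and GADD45A (177 CPM) stood apart from the other 3 deletion libraries, as did LOX (354 CPM), MSMO1 (43.8 CPM) and the share of exon-intron reads (2.70%). In hgRNA 2, FDFT1 in replicate 2 (255 CPM) stood apart. In controls, KIF20A (133 CPM), the 63-base TPM1 exon (34.27%) and the 67-base KLC1 exon (35.22%) stood apart in hgRNA 1 replicate 1, MSMO1 (55.5 CPM) in hgRNA 1 replicate 2, and ANKRD1 (984 CPM) in hgRNA 2 replicate 2.

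The difference between deletion and knockout departed from the same difference for DDX5 at 307 genes by limma. For the genes edited in the 2 pairs, the departure was 0.75 log2 for DDX17 and -1.59 for DDX5. Among the other genes named it was 1.00 for MYPN, 1.60 for TXNRD3, 1.57 for SAT1, -1.10 for ACTA2, -1.11 for IGFBP5, -2.35 for MACROD1 and -1.72 for CRISPLD2.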

How the results depend on the processing

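The 1072 genes called between DDX17 deletion and knockout became 1676 with a GC and length trend removed (values for 96.73% of genes), 610 with hgRNA 1 alone, 556 with hgRNA 2 alone and 3 with the 6 libraries fitted alone. Of the alternatives chosen after seeing the data, leaving out knockout replicate 1 and deletion hgRNA 1 replicate 2 gave 270, and leaving out the replicate 1 libraries of all 4 knockouts gave 300. With each of the 6 libraries left out in turn the count ran from 229 (knockout replicate 1) to 2229 (hgRNA 1 replicate 1). The cause of these changes was not tested. The DDX17 difference of 0.47 log2 was 0.49 in the 6 libraries alone (adjusted p = 0.30), 0.38 without both libraries that stood apart (adjusted p = 0.11) and 0.37 without the knockout replicate 1 libraries (adjusted p = 0.097), and ran from 0.37 to 0.57 with 1 library left out.

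For deletion against controls, the 4.98% of genes called became 8.34% with the GC and length trend removed, 2.72% without a filter, 0.264% with only the compared libraries, 1.83 and 1.95% with hgRNA 1 and hgRNA 2 alone, 0.687% with control hgRNA 2 alone and 1.61% (without hgRNA 2 replicate 2) to 10.5% (without hgRNA 1 replicate 1). For knockout against controls, the 92 higher and 121 lower genes became 503 in all with that trend removed, 17 with only the compared libraries, 84 and 93 with control hgRNA 1 and control hgRNA 2 alone, and 26 (without knockout replicate 1) to 140 with 1 library left out. Between hgRNA 1 and hgRNA 2 the count by limma was 0, against 1 without a filter and 0 to 2442 (without hgRNA 1 replicate 1) with 1 library left out. The 307 departures from the DDX5 pair became 639 with the trend removed, 62 without the knockout replicate 1 libraries and 97 (without DDX5 knockout replicate 1) to 1379 (without hgRNA 1 replicate 1) with 1 library left out.

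The 26 events became 91 with no limit on the difference, 7 with hgRNA 2 alone, 0 by limma in the 6 libraries alone (10525 at an unadjusted p under 0.05) and 9 (without hgRNA 2 replicate 2) to 96 (without knockout replicate 2) with 1 library left out. The mean share of exon-intron reads was 0.54 points higher in the deletion and turned to -0.12 without both libraries that stood apart. DDX5 was -0.35 log2 without knockout replicate 1 and turned to 0.055 log2 without replicate 2, and the MOV10 exon had a difference of 0 with hgRNA 2 alone. Genes named by size kept their call in 440 of their settings and lost it in 64, without a change of direction. A single library left in a group was assumed to vary like the other groups.

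The labels do not say that replicate numbers pair the samples, and the correlations of the deviations of same-numbered libraries were 0.105 between hgRNA 1 and hgRNA 2, -0.028 and -0.107 between each and the knockout, 0.574 between hgRNA 1 and control hgRNA 1 and -0.006 between hgRNA 2 and control hgRNA 2, so that 1 of 5 pairs of groups deviated together. With the replicate block the counts were 1273 genes for deletion against knockout, 5.46% of genes for deletion and 289 genes for knockout against controls, 0 between hgRNAs, 371 against the DDX5 pair and 22 events.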
